A study of Glycine max and Zea mays with 6 samples.

Results

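Broad H3K56ac peaks of soybean leaf are long runs of chromatin acetylated at lysine 56 of histone H3. They were chosen by a rule on measured values: a peak of the leaf H3K56ac list on chromosomes 1 to 20, 2000 bp or longer, that overlapped an H3K4me3 peak by at least 1 bp. The rule found 2152 of 60424 H3K56ac peaks. Of the 2333 peaks that were long enough, 181 had no H3K4me3 and were left out. The main comparison set was the 40159 H3K56ac peaks under 2000 bp that also overlapped H3K4me3, called shorter peaks here.

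The series mapped histone marks by chromatin immunoprecipitation and sequencing (ChIP-seq) to improve genome annotation, the purpose named in its title. The plants were soybean (Glycine max), accession William82, grown in soil for about 10 days at 25 °C under a daily cycle of 16 h light and 8 h darkness, without treatment, and the second and the third leaves were taken. Leaf tissue was fixed with 1% formaldehyde, and separate libraries were made with antibodies against H3K56ac, H3K4me3 and H3K36me3, 1 library for each mark. For the soybean H3K4me3 sample the design text says H3K4me1, but its own title and antibody label say H3K4me3, which is used here. Whole leaves mix many cell types, so marks that overlap here need not sit on the same chromatin molecule. The soybean input and the maize samples were not analysed here.

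H3K56 acetylation is known from yeast as a mark of newly deposited histones, and in plants it is found at the start of many transcribed genes. H3K4me3 marks the 5′ ends of transcribed genes. H3K36me3 is laid down along the gene body by enzymes that travel with elongating RNA polymerase. All values here are marks on chromatin and are not transcript levels.

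The deposited lists give positions alone, with no score or read count, so depth is unknown and a place without a peak is a place without a call. With 1 library per mark no difference below has a replicate check, and no test between samples or p-value could be made. Intervals are exact (Clopper-Pearson) 95% intervals of a share. They cover counting error only, length classes leave out their upper limit, and neighbouring peaks are not independent. No source used here gives the genome build of the lists, and genes are those of a RefSeq table of the assembly Glycine_max_v4.0. The H3K36me3 regions overlapped the genes of that table best within 500 bp of their deposited positions in 554 of 555 windows of 1 Mb. Broad peaks were spread over all 20 chromosomes, 79 to 155 on each, and made up 4.01% to 6.24% of the H3K56ac peaks with H3K4me3. Of the leaf genes checked, RCABETA (Rubisco activase) and RBCS1 (the small subunit of Rubisco) carried H3K56ac with H3K4me3, and CAB3 (a chlorophyll-binding protein) had no such peak over the gene. The seed genes GY1, GY2, GY3, GY7, LOX2 and LOX3 and the nodule genes N-56 and N-70 had none, while the nodulin gene NOD33 lay under one of 1024 bp. H3K4me3 without H3K56ac covered 98.8% of GY7, 41.9% of LOX3, 39.1% of GY2, 10.8% of GY3, 9.31% of GY1 and 41.1% of CAB3. LOX2, N-56 and N-70 had neither mark.

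The broad peaks had a median length of 2406 bp, with quartiles of 2170 and 2858 bp, and the longest had 8159 bp. Together they covered 5.67 Mb. There were 437 of 3000 bp or more and 104 of 4000 bp or more. The limit of 2000 bp fell in a continuous range of lengths. The 10 peaks just inside it, of 2000 to 2003 bp, had a median H3K4me3 coverage of 74.1%, and 3 of them had H3K36me3. The 10 shorter peaks just outside it, of 1997 to 1999 bp, had a median H3K4me3 coverage of 85.5%, and 6 of them had H3K36me3.

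H3K4me3 filled the broad peaks only in part. Since an overlap with H3K4me3 was part of the rule, its coverage is given as a description. H3K4me3 covered a median of 70.6% of a broad peak (quartiles 49.5% and 90.1%), or 1752 bp. In the shorter peaks the median coverage was 99.4%, and in those of 1000 bp or more it was 97.5%. H3K4me3 covered the whole peak in 7.02% of broad peaks and in 46.1% of shorter ones. Most broad peaks held a single H3K4me3 peak: 1813 overlapped 1, 314 overlapped 2, 21 overlapped 3 and 4 overlapped 4. An H3K4me3 peak that was itself 2000 bp or longer lay at 780 broad peaks (36.2%).

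The acetylation that ran beyond H3K4me3 lay mostly at 1 edge of the peak. On the longer side H3K56ac reached a median of 508 bp past the outermost H3K4me3, and on the shorter side 1 bp. A stretch of 500 bp or more without H3K4me3 was found at 1 edge in 960 peaks (44.6%), at both edges in 128 (5.95%) and at neither in 1064 (49.4%).

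H3K36me3 was not used by the rule. It overlapped 1482 broad peaks (68.9%, interval 66.9 to 70.8), where 48.6% of all H3K56ac peaks overlapped it. The share was 64.7% in shorter peaks (interval 64.2 to 65.2), 78.3% in those of 1000 to 2000 bp (interval 77.7 to 79.0) and 18.2% in the 181 long peaks without H3K4me3. A longer peak has more room for an overlap of 1 bp, so the midpoint of each peak was also read. H3K36me3 lay at the midpoint of 1257 broad peaks (58.4%, interval 56.3 to 60.5), against 47.1% of all H3K56ac peaks. By this measure broad peaks were below the shorter peaks (63.7%, interval 63.2 to 64.1) and below those of 1000 to 2000 bp (77.0%, interval 76.3 to 77.6). Broad peaks thus stood above shorter peaks by overlap and below them by midpoint.

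Base by base, 43.6% of the length of broad peaks carried H3K4me3 and H3K36me3 together, 22.5% H3K4me3 alone, 6.51% H3K36me3 alone and 27.4% neither. In shorter peaks these shares were 63.2%, 24.6%, 3.00% and 9.15%. H3K36me3 covered the whole peak in 13.6% of broad peaks and in 40.9% of shorter ones. It ran on past 1 edge of the broad peak in 36.9%, past both in 14.3% and past neither in 48.7%. There were 370 broad peaks with an H3K4me3-free stretch of 500 bp or more at 1 edge and H3K36me3 running on past 1 edge. In 73 of them (19.7%, interval 15.8 to 24.2) both lay at the same edge, so in most the acetylation without H3K4me3 and the continuing H3K36me3 lay on opposite sides.

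Among H3K56ac peaks with H3K4me3, H3K36me3 at the midpoint was most frequent at 1000 to 1500 bp, with 79.2% (interval 78.5 to 79.9). It was 68.2% at 1500 to 2000 bp. Within the broad peaks it was 64.0% of 1220 peaks at 2000 to 2500 bp, 58.0% of 495 at 2500 to 3000 bp and 48.3% of 333 at 3000 to 4000 bp. At 4000 bp and more it was 26.9% of 104 (interval 18.7 to 36.5). Among peaks whose midpoint lay in a protein-coding gene the same 4 length classes of broad peaks had 74.4%, 67.2%, 61.7% and 41.3%. The lower shares of longer peaks were thus also seen inside genes. The median length under H3K4me3 rose over these classes from 1680 to 2636 bp while the median coverage fell from 76.4% to 51.9%. At least 2 H3K4me3 peaks were found in 9.67% of the peaks at 2000 to 2500 bp and in 45.2% of those of 4000 bp or more.

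**Figure D1:**
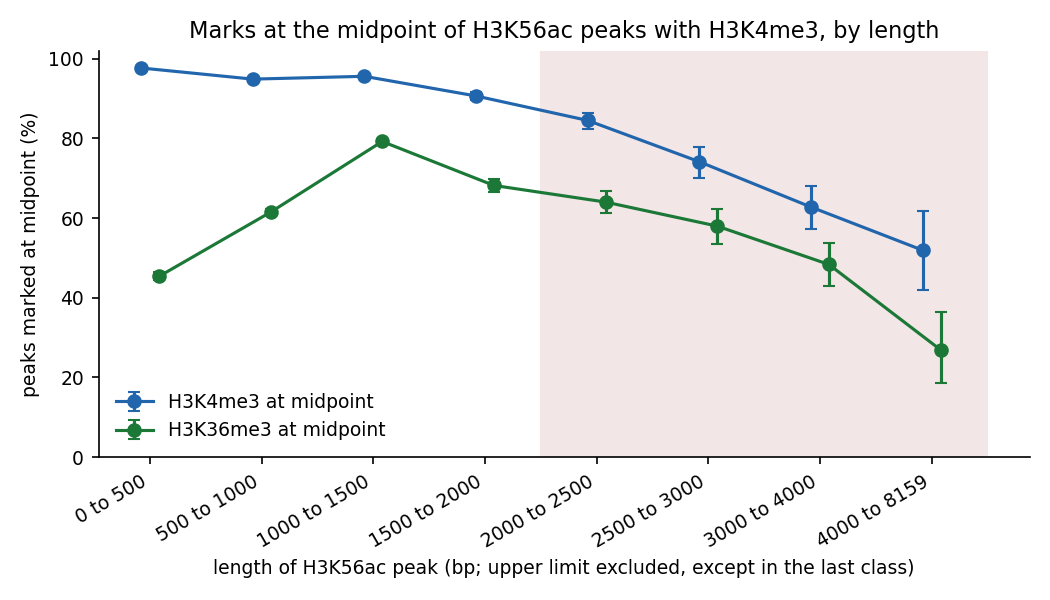
Share of H3K56ac peaks with H3K4me3 that carry each mark at their midpoint (y axis, percent), by peak length (x axis, bp); bars are exact 95% intervals and the shaded classes are the broad peaks. H3K36me3 is at 79.2% of midpoints at 1000 to 1500 bp and at 26.9% at 4000 bp and more, and H3K4me3 at the midpoint is 84.5% in the first shaded class and 51.9% in the last.

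The broad peaks without H3K36me3, 670 in number, also had less H3K4me3. Their median H3K4me3 coverage was 50.2%, against 77.2% in the 1482 with H3K36me3. Their lengths were close, with medians of 2435 and 2393 bp. No protein-coding gene lay under 37.3% of the former (interval 33.6 to 41.1) and under 9.18% of the latter (interval 7.76 to 10.8). Broad peaks with an H3K4me3 peak of 2000 bp or more had H3K36me3 at the midpoint in 78.6% (interval 75.5 to 81.4), and the other 1372 in 46.9% (interval 44.3 to 49.6).

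Against genes, 1766 broad peaks (82.1%, interval 80.4 to 83.7) lay over a protein-coding gene, where 69.5% of all H3K56ac peaks and 82.7% of shorter peaks did. A gene end lay under 1379 of them (64.1%, interval 62.0 to 66.1). For all H3K56ac peaks this share was 34.3%, and for those of 1000 to 2000 bp with H3K4me3 it was 60.0%. Longer intervals meet more gene ends, and how much of these differences length alone gives was not tested. Protein-coding genes held less of the acetylated length in broad peaks: 38.2% of it lay outside them, against 24.2% in shorter peaks. The table has no strand, so a gene end here can be the start or the far end of the gene.

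Sorted into exclusive classes, 945 broad peaks covered 1 end of 1 gene, 388 lay inside 1 gene, 386 were over no protein-coding gene, 220 reached 2 or more genes, and 213 held 1 whole gene. H3K36me3 overlapped 91.8% of peaks over 2 or more genes (interval 87.4 to 95.1). It overlapped 76.5% of those over 1 end (interval 73.7 to 79.2), 76.1% of those over a whole gene and 66.8% of those inside a gene. It overlapped 35.2% of those over no gene (interval 30.5 to 40.2).

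**Figure D2:**
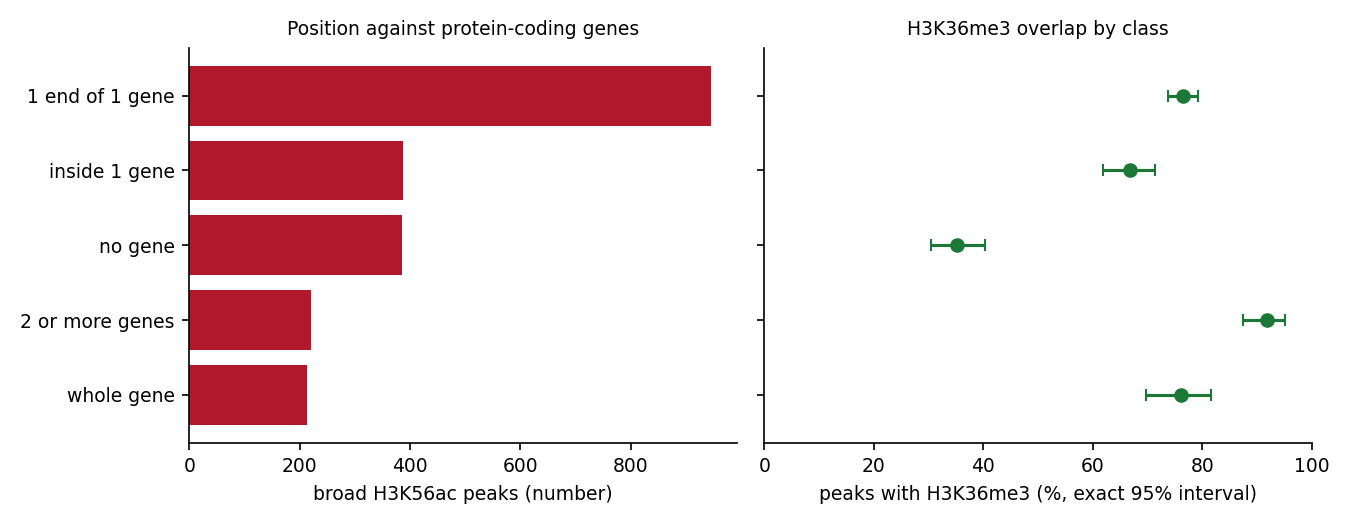
Left, the number of broad H3K56ac peaks in each class of position against protein-coding genes; right, the share of each class that overlaps H3K36me3 (percent, points with exact 95% intervals). Peaks over 2 or more genes are highest at 91.8%, and peaks over no gene are lowest at 35.2%.

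The largest class showed how the marks lie around a gene end. In the 945 peaks over 1 end of 1 gene, a median of 1891 bp lay on the gene side of that end and 536 bp on the outer side. The gene side was the longer in 731 peaks (77.4%, interval 74.6 to 80.0). H3K4me3 covered 79.6% of the length on the gene side and 37.9% on the outer side, and H3K36me3 covered 67.8% and 24.7%. H3K56ac reached 500 bp or more beyond H3K4me3 on the outer side in 36.3% (interval 33.2 to 39.5) and on the gene side in 20% (interval 17.5 to 22.7). The outer side was thus the one where acetylation more often ran without the other marks.

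At 500 bp outside the gene end, H3K56ac was present at 52.6% of these genes, H3K4me3 at 17.9% and H3K36me3 at 13.5%. At the same point beside 8642 peaks of 1000 to 2000 bp over 1 gene end, the values were 8.74%, 4.15% and 6.55%. Inside the gene, H3K4me3 was highest 500 bp from the end, at 85.4%, and H3K36me3 at 800 bp, at 71.2%. Beside the 1000 to 2000 bp peaks these highest points lay at 300 bp, with 95.8%, and at 500 bp, with 87.4%. At 2000 bp into the gene H3K56ac and H3K4me3 were at 46.2% and 33.9% of genes with a broad peak and at 3.90% and 3.69% of the others, while H3K36me3 was at 54.0% and 63.2%. At this distance broad peaks therefore had more H3K56ac and H3K4me3 and less H3K36me3. Every gene was read at every distance, also where the point lay past its far end, as at DREB1 with 993 bp. The sets were not matched for gene length. Whether the lower H3K36me3 holds inside genes alone was not tested. The width of H3K56ac in this comparison was set by the rule.

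**Figure D3:**
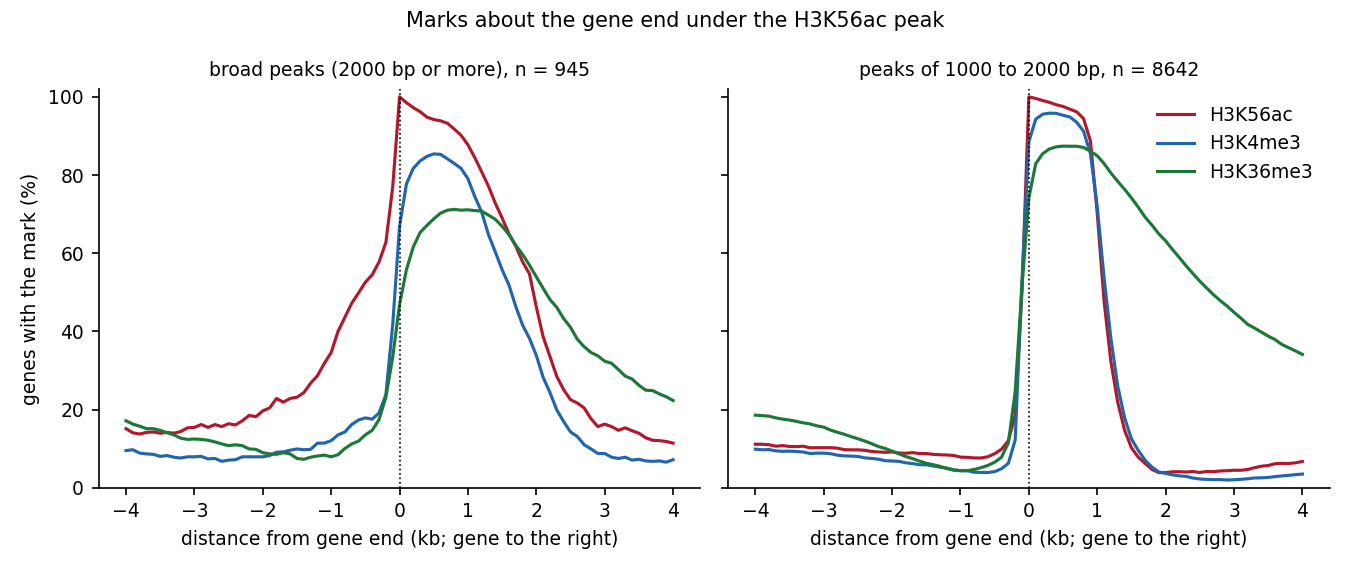
Share of genes (y axis, percent) with each mark at a given distance from the gene end that lies under the peak (x axis, kb, gene to the right), for 945 broad peaks and 8642 peaks of 1000 to 2000 bp. In the left panel H3K56ac reaches farther out of the gene than both methylation marks, with 52.6% against 17.9% and 13.5% at 500 bp outside; in the right panel H3K56ac and H3K4me3 nearly coincide.

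Peaks inside a gene mostly kept close to one of its ends. Their genes had a median length of 4978 bp, and the nearer gene end lay a median of 136.5 bp from the peak, within 500 bp in 288 of 388 (74.2%). The rule set these peaks at 2000 bp or more, which limits the room left in the gene. How much of this closeness length alone gives was not tested. Peaks that held a whole gene lay over short genes, with a median of 1554 bp, and 162 of these 213 genes carried H3K36me3.

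Some broad peaks reached more than 1 gene. Over 2 or more genes lay 220 broad peaks (10.2%, interval 8.97 to 11.6), compared with 1.18% of all H3K56ac peaks and 1.67% of those of 1000 to 2000 bp with H3K4me3. Longer intervals meet more genes, and broad peaks were chosen by length. Among peaks with H3K4me3 the share was 3.73% at 1500 to 2000 bp, 7.46% at 2000 to 2500 bp and 16.3% at 4000 bp and more. How much of the difference length alone gives was not tested. Exactly 2 genes were reached by 214. In 142 of these the peak bridged the gap between them, with each gene running on beyond the peak, and the gap had a median of 455 bp. Both genes carried H3K36me3 in 116 of the 142 (81.7%, interval 74.3 to 87.7), 1 gene in 21 and neither in 5. No comparison set of gene pairs is given here, and most genes under broad peaks carried H3K36me3. H3K36me3 ran out of both edges of the bridging peak in 79 (55.6%).

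The 10 longest peaks had between 13.5% and 75% of their length under H3K4me3, and 7 of them had no H3K36me3. The longest, chr3:35615172-35623330, held an snRNA gene (LOC113001305) and an snoRNA gene and no protein-coding gene, and H3K4me3 covered 21.8% of it. The second, chr15:4418037-4426069, with 8033 bp, reached only 4.61% of the gene LOC100782859, and the rest lay outside it. The third, chr8:1378233-1386181, held 3 snRNA genes and a pseudogene. The fourth, chr3:45715319-45723184, with 7866 bp, covered the whole of LOC100800225, a gene of 7700 bp, and 4 separate H3K4me3 peaks filled 71.8% of it with no H3K36me3 over the gene. Thus the longest peaks included stretches outside protein-coding genes as well as whole genes.

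On chromosome 7, chr7:7188476-7195804, the peak of 7329 bp covered 92.0% of LOC100805833 and 54.3% of LOC100806357, both without H3K36me3. On chromosome 17, chr17:2870903-2877462, that of 6560 bp bridged LOC100817801 and LOC100818336, with 97.2% and 68.4% of their lengths under H3K36me3. Of the remaining 4, that of 7008 bp on chromosome 13 held a lncRNA gene and no protein-coding gene, with 29.5% under H3K36me3. The peak of 6520 bp on chromosome 11 held the whole of LOC100782590 and had no H3K36me3. That of 6455 bp on chromosome 15 held LOC100527056, which had 97.8% of its length under H3K36me3. The peak of 6402 bp on chromosome 20 reached 13.4% of LOC100792172 and had no H3K36me3.

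**Figure D4:**
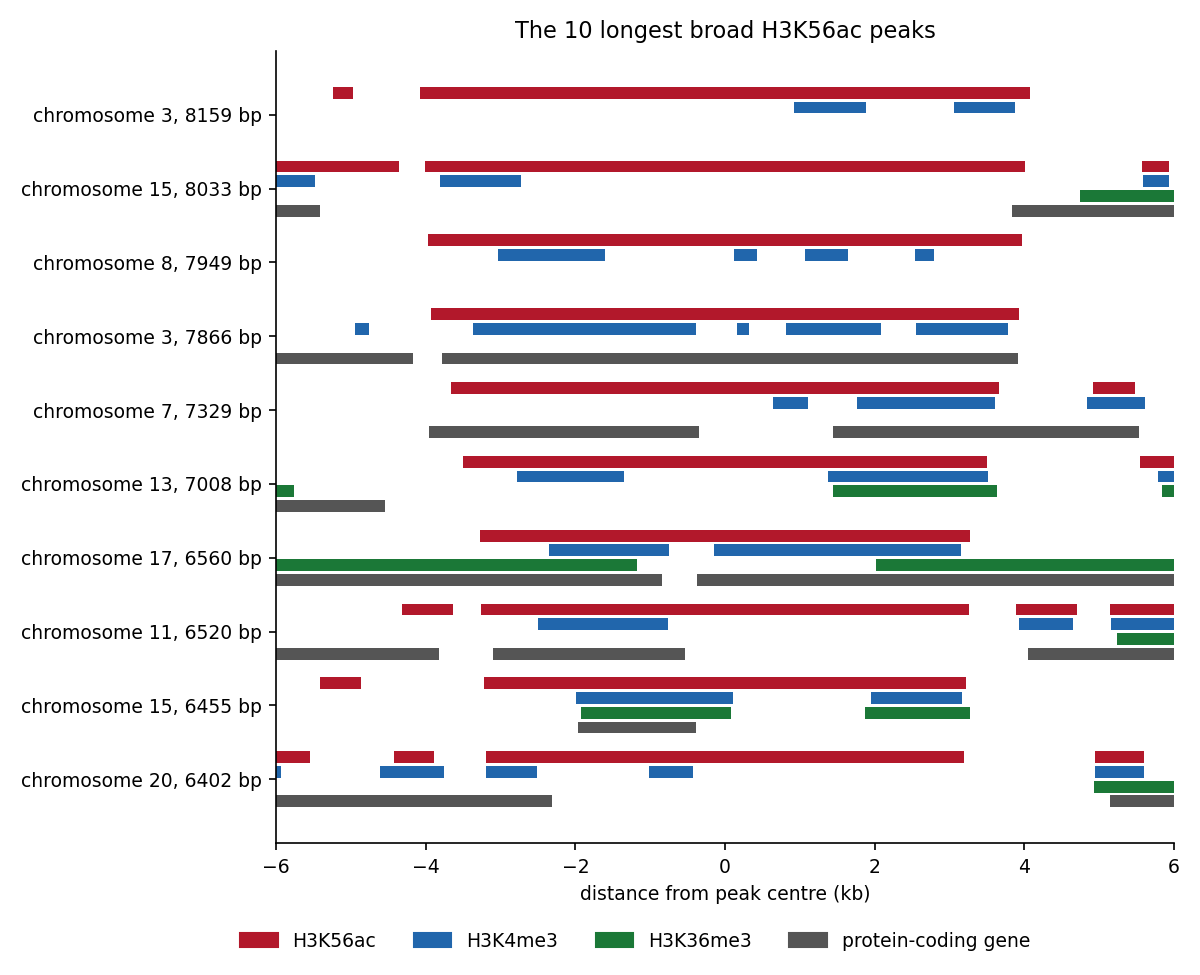
The 10 longest broad H3K56ac peaks, 1 per row from the longest at the top, with H3K56ac, H3K4me3 and H3K36me3 peaks and protein-coding genes drawn by distance from the centre of the peak (x axis, kb). H3K4me3 blocks cover only part of the length of each long H3K56ac peak, and H3K36me3 lies within the peak in 3 of the 10 rows.

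Under the broad peaks lay 1969 of 46816 protein-coding genes, which is 4.21%. H3K36me3 was found on 1557 of them (79.1%, interval 77.2 to 80.9), where 51.1% of all protein-coding genes had it. Genes under shorter peaks had it in 76.4% (interval 75.9 to 76.9), and those whose longest peak was 1000 to 2000 bp in 85.7%. Genes under broad peaks had a median length of 3563 bp, between the 4102 bp of genes under shorter peaks and the 3351 bp of all genes. Gene length changed the order of the groups. Among genes under 1000 bp, H3K36me3 was on 60 of 100 under broad peaks (interval 49.7 to 69.7) and on 40.9% of those under shorter ones (interval 38.1 to 43.9). Among genes of 1000 to 2000 bp, H3K36me3 was on 76.7% of those under broad peaks (interval 71.3 to 81.6) and 51.5% of those under shorter ones (interval 49.8 to 53.2). Among genes of 2000 to 4000 bp it was on 80.5% (interval 77.5 to 83.3) and 74.8% (interval 73.9 to 75.7). Among genes of 4000 to 8000 bp it was on 79.3% (interval 76.0 to 82.4) and 84.7% (interval 84.0 to 85.4). Among genes of 8000 bp or more it was on 85.4% (interval 79.8 to 89.9) and 89.6% (interval 88.6 to 90.5), intervals that overlap. Against shorter peaks of every length, the share was thus higher under broad peaks in the classes below 4000 bp and lower in the class of 4000 to 8000 bp. Genes whose longest peak was 1000 to 2000 bp were not split by gene length, so the order against them in each class is unknown.

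Of the 2348 protein-coding genes that have a named symbol, 117 lay under a broad peak, a share of 4.98%, and 87 of these peaks had H3K36me3. Counts for families of symbols are given beside that share and are small. Symbols alone placed genes in a family, so a family can hold a gene of another kind. A gene counted from 1 bp of overlap, and coverage is that of the whole peak, also where much of the peak lay outside the gene. Only 9.48% of the peak at CHS9, 13.5% of that at DREB1 and 25.8% of that at NAC021 lay in the gene. The peaks at CHLI, NAC021, CYP28 and NF-YA16 each reached 2 genes. Other peaks lay wholly inside the gene, as at BZIP48 and WRKY36.

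In the photosynthesis list 2 of 11 genes were under a broad peak, RCABETA and RCA11, and both peaks had H3K36me3. The RCABETA peak had 2342 bp, with 100% under H3K4me3 and 89.2% under H3K36me3. RBCS1 lay under a peak of 679 bp. Genes of chlorophyll and carotenoid synthesis were picked after their values were seen, from no fixed list. They were CHLI, for a subunit of the magnesium chelatase of chlorophyll synthesis (2895 bp, 43.0% under H3K36me3), and ZEP, for zeaxanthin epoxidase (2630 bp, 55.9%). BCH2, of the same symbol class as beta-carotene hydroxylase genes, had 2595 bp with 53.3%. SGR1, a stay-green gene of chlorophyll breakdown, was picked in the same way, and its peak of 2056 bp had 95.5% under H3K4me3 and none under H3K36me3.

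Regulators of day length and flowering were split. Of 14 CO-like and CDF genes, related to CONSTANS and to the DOF factors that repress it in Arabidopsis, 4 lay under broad peaks and all 4 peaks had H3K36me3. COL10 lay wholly under its peak of 2328 bp, which had 94.5% under H3K4me3 and 85.6% under H3K36me3. CDF1 had 2150 bp with 64.8% and 61.9%, and COL21 had 2040 bp with 100% of each. In the FT and TFL1 family 1 of 15 was under a broad peak. This was FT2A, a flowering promoter, whose peak of 2011 bp had 17.8% (358 bp) under H3K4me3 and no H3K36me3. Of 27 clock and photoreceptor genes none lay under a broad peak. The longest peaks at E2, PHYA, TOC1, GIGANTEA and LCL1 had 1515, 1384, 1111, 945 and 238 bp, and that of PHYA had 73.4% under H3K36me3 and the other 4 had 100%.

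Hormone and transport genes under broad peaks often lacked H3K36me3. Of 28 auxin carrier genes 4 lay under broad peaks. The auxin influx carrier genes LAX3 (2630 bp) and LAX1 (2615 bp) had 68.4% and 30.6% of the peak under H3K36me3. LAX13 (2577 bp) and the efflux carrier gene PIN3D, named after its values were seen, had none. Of 49 aquaporin genes 5 lay under broad peaks, all of the PIP2 symbol class of plasma membrane water channels, and 2 of the 5 peaks had H3K36me3. PIP2-6 had 2406 bp without it, and PIP2-8 and PIP2-14 had 2202 and 2114 bp with 99.9% and 89.5%. The sugar transporter gene SWEET31 was 1 of 43 (2286 bp, 61.2% under H3K36me3) and the phosphate transporter gene PHT1-5 1 of 21 (2012 bp, 99.4%). Of 21 gibberellin oxidase genes none was under a broad peak, and GA2OX4, which belongs to the class that inactivates gibberellin, had a peak of 1838 bp without H3K36me3.

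Among transcription factors, broad peaks lay at 5 of 77 bZIP, 3 of 70 MYB, 2 of 61 WRKY, 2 of 41 NAC, 2 of 37 heat shock factor, 2 of 13 ERF and DREB and 1 of 33 NF-Y genes. Several families held a peak filled with H3K36me3 beside one without it. BZIP48 lay under 3052 bp with 96.0% under H3K36me3, and BZIP50 under 2953 bp with 75.2% under H3K4me3 and no H3K36me3. BZIP46 had 2839 bp with 49.3%. The heat shock factor gene HSF-21 lay wholly under a peak of 2805 bp without H3K36me3, and that of HSF-20, of 2080 bp, was covered fully. WRKY36 had 2843 bp with 98.4% under H3K4me3 and none under H3K36me3, and WRKY42 had 2107 bp with 38.0% under H3K36me3.

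The same split was seen at DREB1, of a family known for cold and drought responses, with 2380 bp and no H3K36me3, and DREB3, with 2032 bp and 87.2%. NAC021 had 2604 bp with 69.3%, and NAC14 lay wholly under 2034 bp with none. The MYB genes MYB112, MYB158 and MYB183 all had H3K36me3 over 51.3% to 97.6% of the peak, and NF-YA16 had it over 100%. No gene of the LBD list (33) or of the DOF list (1) was under a broad peak, and the pattern for GRAS factors matched no symbol.

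In the other lists broad peaks lay at 6 of 65 IQD genes, whose proteins bind calmodulin, and 5 of the 6 had H3K36me3. IQD13 had the longest, 3910 bp with 89.8% under H3K4me3 and 60.8% under H3K36me3. IQD29 (2753 bp) had 27.0% and none, and IQD22 (2561 bp) 81.9% and 70.3%. Broad peaks lay at 3 of 59 genes of the numbered CYP series (CYP28, CYP15 and CYP24, each with 100% under H3K36me3) and at 2 of 37 GST genes (GSTU9 and GSTU37). They lay at 1 of 85 CRK genes (CRK64) and at 1 of 13 expansin genes (EXPB4). No broad peak lay at the 48 ALDH, 24 histone deacetylase, 18 14-3-3, 18 HSP, 25 seed protein, 16 nodulin or 3 calmodulin list genes. In all, 20 of the 32 lists had a gene under a broad peak.

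Of symbol genes wholly under their peak, the longest were HSF-21, SOMT-9, CHR2, AOX3 and HDL56. SOMT-9, an O-methyltransferase gene, lay under 3547 bp with 39.3% under H3K36me3. CHR2 lay under 3290 bp with 60.8%, AOX3, for an alternative oxidase of mitochondria, under 2926 bp with 61.7%, and HDL56 under 2289 bp with 87.4%. Under peaks of 3000 bp or more without H3K36me3 there was 1 symbol gene, SPCP1, with 3561 bp and 47.3% under H3K4me3.

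Other genes were named after their values were seen. CEL8 had the longest peak of a symbol gene, 4141 bp, with 99.4% under H3K4me3 and 100% under H3K36me3. C4H, for the cinnamate hydroxylase of the phenylpropanoid pathway, had 3840 bp with 70.6% and 36.5%. The pathway genes CHS9 (chalcone synthase), CCR (cinnamoyl-CoA reductase) and FLS1 (flavonol synthase) had 2404, 2202 and 2060 bp, all without H3K36me3. They were picked from no fixed list, and C4H of the same pathway had it. Of 10 genes with a CHI symbol 2 lay under broad peaks and were split. CHI3A2 (2194 bp) had 95.9% under H3K36me3 and CHI4A (2203 bp) had none. The CHS9 peak covered only 14.2% of that gene. FAD8.2, an omega-3 fatty acid desaturase gene, had 3004 bp with 86.6%, and GRF4 and GRF5 had 2920 and 2840 bp with 95.8% and 89.6%.

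The 30 symbol genes whose broad peak had no H3K36me3 had H3K4me3 over 17.0% to 100% of it, with a median of 70.3%, and 11 were under 50%. In the 87 with H3K36me3 the range was 28.4% to 100%, the median 85.8%, and 4 were under 50%. Absence of H3K36me3 was therefore seen both with little H3K4me3, as at TPS21 (17.0%, named like GDH1 after its value was seen), CCR (18.3%) and GDH1 (26.4%, glutamate dehydrogenase), and with nearly full H3K4me3, as at WRKY36.

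**Figure D5:**
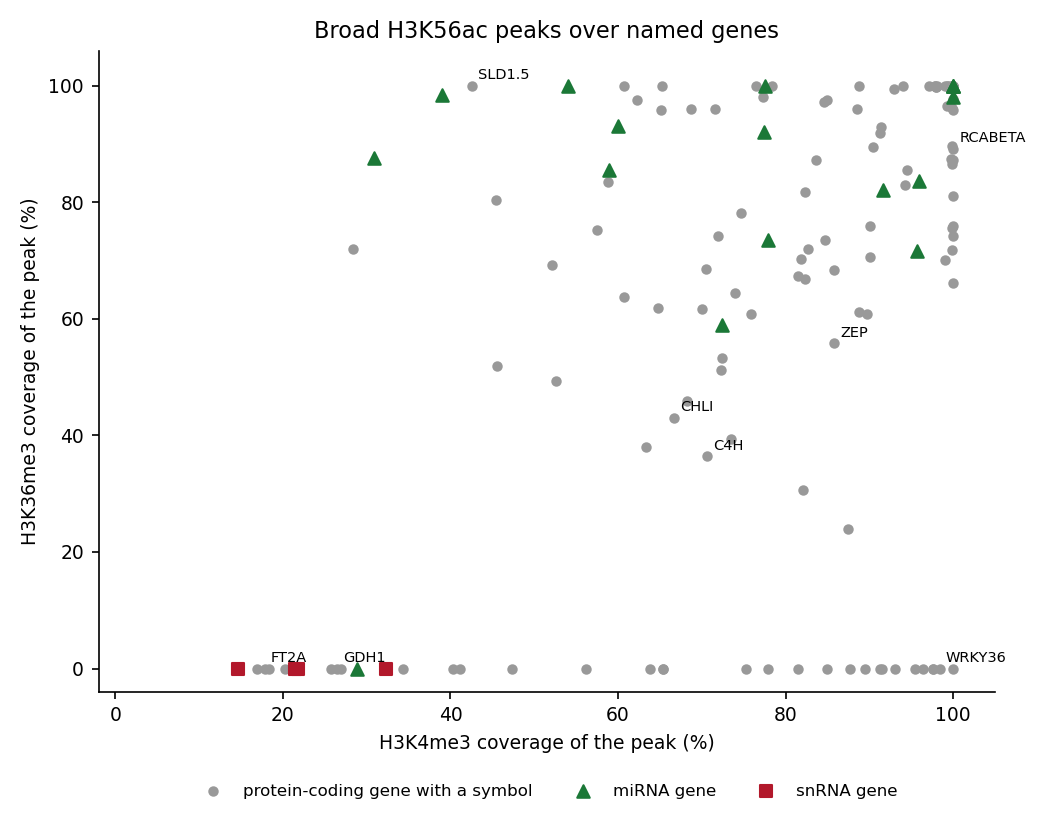
H3K4me3 coverage (x axis, percent of the peak) and H3K36me3 coverage (y axis, percent of the peak) of the broad peaks over 117 protein-coding genes with a symbol (1 grey point per gene), and of those over miRNA and snRNA genes (1 point per peak). All 4 snRNA peaks lie on the line of no H3K36me3 at 14.7% to 32.3% H3K4me3, while 16 of 17 miRNA peaks lie at 59.0% or more H3K36me3.

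Non-coding genes divided in the same measure. These gene types were singled out after their values were seen. Broad peaks lay over 18 of 659 miRNA genes (2.73%, interval 1.63 to 4.28), in 17 peaks of 2034 to 3256 bp, and 16 of the 17 overlapped H3K36me3, over 59.0% to 100% of the peak. Each of the 18 annotated miRNA genes lay wholly inside its peak, 17 of them touched H3K4me3 and 17 touched H3K36me3. In 12 of the 17 peaks no protein-coding gene was present. Most of the 17 also lay over an annotated lncRNA gene, as at MIR156K, MIR156N, MIR156U, MIR166A, MIR166C, MIR172B, MIR408D, MIR482B and MIR482D. Those peaks are counted again under lncRNA genes below, and their marks cannot be assigned to the miRNA gene alone.

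Most members of the larger miRNA families were not under a broad peak. MIR156K, MIR156N and MIR156U were 3 of 28 genes of the miR156 family, which in Arabidopsis holds plants in the juvenile phase by acting on SPL transcription factors. Their peaks had 2696, 2905 and 2253 bp, with 92.1%, 98.5% and 85.5% under H3K36me3. MIR172B, 1 of 12 genes of the family that acts on AP2-type factors and promotes adult traits in Arabidopsis, had 2513 bp with 71.6%. MIR166A and MIR166C, 2 of 20 genes of the family that acts on HD-ZIP III factors of leaf polarity, had 2179 and 2067 bp, each with 100% of both methylation marks. MIR396B, 1 of 9 genes of the family that limits growth-regulating factors in Arabidopsis, had 2037 bp with 93.1%, and MIR408D, 1 of 4 of a copper-responsive family, 2034 bp with 59.0%. MIR482B and MIR482D, 2 of 4 MIR482 genes, had 2509 and 2044 bp with 100% and 73.5%. The exception was MIR5042, with 2425 bp, 28.9% under H3K4me3 and no H3K36me3.

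Broad peaks over genes of small nuclear RNAs, the RNA parts of the spliceosome, were few and had no H3K36me3. Broad peaks lay over 8 of 133 snRNA genes (6.02%, interval 2.63 to 11.5), in 4 peaks of 2197, 2706, 7949 and 8159 bp. None of the 4 overlapped H3K36me3 (interval 0 to 60.2%) or a protein-coding gene, and H3K4me3 covered 14.7%, 21.4%, 32.3% and 21.8% of them. Of all broad peaks over no protein-coding gene 35.2% overlapped H3K36me3, a share inside that interval. The 4 peaks are thus too few to be set apart from that class. The snRNA genes shared peaks, so the 8 genes are 4 places.

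Of the other types, broad peaks lay over 139 of 3328 lncRNA genes (4.18%), 120 of 4482 pseudogenes (2.68%) and 9 of 250 transcribed pseudogenes (3.60%). They lay over 7 of 1674 snoRNA genes, 3 of 709 tRNA genes, 5 of 144 genes typed as other RNA and 0 of 448 rRNA genes, which allows a share of up to 0.820%. H3K36me3 overlapped 93 of 136 peaks over lncRNA genes (68.4%, interval 59.9 to 76.1) and 69 of 120 over pseudogenes (57.5%, interval 48.1 to 66.5). It overlapped 1346 of the 1766 over protein-coding genes (76.2%, interval 74.2 to 78.2).

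The 386 broad peaks over no protein-coding gene lay a median of 2423 bp from the nearest one, and 26 were within 500 bp of it. No annotated gene of any type lay under 217 broad peaks (10.1%, interval 8.84 to 11.4), and 48 of these carried H3K36me3. The 5 with the longest H3K36me3 overlap were chr16:7482278-7485832, chr11:9181703-9185043, chr7:37517097-37520290, chr13:41422014-41425029 and chr12:106573-109505, with 3555, 3341, 3194, 3016 and 2933 bp. H3K36me3 covered 99.1%, 97.1%, 100%, 99.0% and 89.6% of them, and H3K4me3 covered 98.7%, 99.8%, 96.6%, 74.9% and 26.7%. These 5 were picked for their H3K36me3, and in the last of them most of the peak was without H3K4me3. Whether a gene of another annotation lies there was not tested.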

How the data were processed

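The authors deposited 1 list of positions (chromosome, start and end in bp) per mark, per sample, with no score. Per the submitters' processing notes Trimmomatic, Bowtie2, Picard, SICER and MACS2 were used. No source used here gives their versions and roles, the soybean build or any use of the input. Every deposited H3K36me3 region starts at a multiple of 200 bp and ends 1 bp short of one. The edges of these regions are therefore coarser than those of the other lists, and their ends were moved by 1 bp to treat all lists alike.

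Peaks and RefSeq genes were intersected in Python 3.11.15 with pandas 2.3.3, numpy 2.4.6 and scipy 1.17.1, counting overlaps from 1 bp. The interval functions were tested on simulated intervals. Coordinates are counted from 1, and coverage is the share of a peak's bases under the other list. Genes were named by rule: those under the 10 longest peaks, up to 3 per symbol list, the 5 longest symbol genes wholly covered, up to 5 under peaks of 3000 bp or more without H3K36me3, and 10 set genes. The members, the 32 lists and the set genes were chosen with earlier results of these data known. The gene table used has no strand, so position was taken from the gene end under the peak, in place of the planned end nearer H3K4me3. Planned promoter motif counts were not run, because no sequence was used here. The result of 1 symbol list is not reported here.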

Additional observations from a re-analysis of the deposited data

How the results depend on the processing

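No paired analysis was possible because each mark has 1 library, and leaving out a library was not possible for the same reason. Merging peaks within 200 bp changed nothing, since the smallest gap was 301 bp. Of 97 recomputed values 52 stayed within the interval or 1.5 times of the reported one. The 52 include values that their setting could not change, such as all those of the 200 bp merge. They also include the H3K36me3 share at the midpoint under a changed gene overlap. The count is therefore no measure of how stable the results are.

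With lengths from 3000 bp and from 1500 bp the peaks numbered 437 and 5371, the genes under them 412 and 4704 and the list genes 2 and 140. In the same order, H3K36me3 at the midpoint was 43.2% and 64.3%, median H3K4me3 coverage 57.4% and 80.5%, gene ends 66.8% and 60.4%, 2 or more genes 16.0% and 6.33%, length outside genes 46.1% and 33.3%, and the longer gene side 65.0% and 85.2%. From 3000 bp, H3K36me3 overlap was 65.0%, gene overlap 78.3% and the median H3K36me3 coverage of the first gene 59.6%.

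With H3K4me3 over 50% or more of the peak, H3K36me3 overlap was 79.1%, its midpoint share 71.3%, H3K4me3 coverage 79.6%, gene overlap 86.2%, gene ends 66.8%, length outside genes 32.2%, first-gene coverage 68.3% and the longer gene side 83.5%. Requiring H3K36me3 over 50% of the peak left 57.3%. A gene overlap of 200 bp put 8.83% over 2 or more genes, and gene ends within 500 bp gave 78.6%.

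With genes of every type, gene overlap was 89.9%, gene ends 70.4%, 2 or more genes 16.3%, length outside genes 30.6% and the longer gene side 81.0%. Merging peaks within 500 bp, chosen after seeing the data, gave 3236 peaks, 3122 genes, 92 list genes, a midpoint share of 55.7%, H3K4me3 coverage of 63.9%, gene overlap of 84.8%, gene ends of 67.6% and 12.3% over 2 or more genes. The cause of these changes was not tested, beyond the smaller or larger sets of peaks that the settings make.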
